A study of Mus musculus with 16 samples.

Results

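BDC2.5/B6g7 thymocytes cultured with peptide for 16 h were compared with BDC2.5/B6g7 thymocytes that had no peptide added, on 3 arrays each. These 6 arrays were chosen by their titles from a series of 16. The other 10 were 3 arrays of BDC2.5/NOD cells without peptide, 3 of BDC2.5/NOD cells at 16 h of peptide, 2 of wild-type B6g7 cells and 2 of wild-type NOD cells. Fetal thymic organ culture (FTOC), in which explanted lobes of the fetal thymus go on making T cells in vitro, was the source of all cells, and each array held total RNA of their CD4+CD8+ (double-positive) fraction. The BDC2.5 transgenes encode the T cell receptor (TCR) of a diabetogenic CD4 clone, and the controls without peptide carried them too. B6g7 mice carry the MHC region of the diabetes-prone NOD strain on a C57BL/6 background, so that their cells can present peptide to this receptor. The peptide and its dose are unnamed in the labels, which also give no gestational age and do not say how the double-positive cells were obtained from the lobes. They do not say whether the cultures counted as 0 h were stopped together with those of 16 h, nor that replicates were separate animals or cultures, so p-values may measure technical spread only.

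As background, a thymocyte at the double-positive stage tests its TCR on self peptides shown by MHC molecules. Weak engagement lets the cell live and mature, while strong engagement leads to negative selection, in which the cell dies or is diverted. Engagement sets off calcium and NFAT signalling, the MAP kinase cascade and NF-kB, and switches on immediate-early transcription factors such as those of the Nr4a and Egr families. Nr4a1 and the BH3-only protein Bim, encoded by Bcl2l11, are known effectors of death in negative selection. Signalled double-positive cells also stop rearranging their receptor genes, for which they need Rag1 and Rag2.

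After 16 h of peptide, the 5 largest positive differences among genes whose arrays did not overlap and that reached an intensity of 100 were those of Nr4a1 (4.4-fold), Itm2a (3.53-fold), Pdcd1 (3.49-fold), Ccnd2 (2.98-fold) and Nfatc1 (2.77-fold). Bcl2l11, the gene of Bim, was 2.2-fold higher, also with no overlap. Rag1, Rag2, Ccnd3 and Endou were lower in every same-numbered pair of arrays. Of the measured ribosome biogenesis genes 30 of 37 were higher, against 49% of all genes. Of the mitosis genes 32 of 38 were lower, against 51% of all genes. These lists were written with earlier results of the same data known. The spread between arrays was wide, and the limma fit called 1 of 12422 probe sets (0.00805%) at an adjusted p under 0.05, the dimmer of the 2 probe sets of Gadd45b, which rose. No other difference below passed that test, and 422 probe sets (3.4%) had an unadjusted p under 0.05.

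The arrays measured 12422 probe sets, each reading 1 stretch of a transcript, and 8251 genes had a probe set of their own. Each gene is given by its brightest probe set unless stated. Differences are 16 h of peptide minus no peptide on the log2 scale, where 1 is a doubling, with the standard error of a limma fit to all 16 arrays after the ± sign. Median intensity lay between 55.0 and 57.7 on the 6 arrays. Same-numbered arrays deviated from their group means together: the correlation of deviations was 0.639, 0.249 and 0.6 for the numbers 1, 2 and 3, and between -0.63 and 0.039 for arrays with different numbers. Deviations within a group sum to 0, which ties these correlations to each other, so the contrast is partly built in. With that limit, same-numbered arrays are also given as pairs. Pair 3 was spread widest, with a standard deviation of its differences over genes of 0.451, against 0.235 in pair 1 and 0.304 in pair 2. The arrays numbered 3 also had the smallest gap between 3' and 5' control probe sets of actin, 1.36 without and 1.66 with peptide on the log2 scale, against 2.24 to 2.70 on the other 4. This gap is read as a sign of how complete the labelled RNA was, and its part in the differences below was not tested. Actb, the beta-actin gene often used as a reference, differed by -0.10 ± 0.18. The dimmer Actb probe set differed by -0.40 and was lower in every pair, with overlapping arrays. Among markers of the double-positive stage, Cd8a lay between 1074 and 3082, Dntt between 864 and 2735, and Rag1 between 543 and 2492. Dimmer were Cd4, between 158 and 273, Cd3e, between 213 and 285, and Rag2, between 74.3 and 238.

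Markers of other cells were mostly near the dim end, and no probe set on the arrays had an intensity of 0, the lowest being 7.77. Of 32 markers of myeloid and dendritic cells, 28 had a mean under 100 without peptide and 27 with it. Their summed intensity lay between 1721 and 2116 without peptide and between 2190 and 2681 with it, with no overlap, and 23 of the 32 were higher with peptide. Tyrobp, a signalling adaptor of myeloid and NK cells, had intensities of 42.3, 40.8 and 28.6 without peptide and 56.9, 60.4 and 51.6 with it. The 18 thymic epithelial markers summed to between 1171 and 1415 without peptide and between 1018 and 1084 with it. Of these 8 were higher and 10 lower, with a median of -0.015, and 17 had a mean under 100 in either group. Ctsl was the 1 member lower without overlap by at least 1.5-fold, against 0.521% of all genes. Summed levels overlapped between the groups for the markers of B cells, of mesenchyme and endothelium, of erythroid cells, of NK and innate lymphocytes, of mature single-positive and gamma delta T cells, and of double-negative thymocytes. The part of other cells in the differences below was not tested.

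The promoters of Gadd45b, Nr4a1 and Itm2a are shown because Gadd45b carried the 1 call and the other two the largest positive differences among genes whose arrays did not overlap. Each is the 250 bases before the transcription start in RefSeq's mouse build GRCm38.p6, printed 5' to 3' on the gene's strand. Capitals mark matches, on either strand, to the letters of 3 motifs: TGCGTCA, a variant of the cyclic AMP response element, GCGNGGGCG of the EGR factors, and GGAAA, the core of NFAT sites.
Gadd45b, chr10:80929841-80930090, + strand: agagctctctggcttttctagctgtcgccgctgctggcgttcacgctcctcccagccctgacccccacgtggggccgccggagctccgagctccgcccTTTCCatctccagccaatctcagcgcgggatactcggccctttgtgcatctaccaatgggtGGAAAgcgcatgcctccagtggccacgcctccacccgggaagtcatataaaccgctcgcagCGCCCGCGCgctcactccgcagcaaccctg
Nr4a1, chr15:101266596-101266845, + strand: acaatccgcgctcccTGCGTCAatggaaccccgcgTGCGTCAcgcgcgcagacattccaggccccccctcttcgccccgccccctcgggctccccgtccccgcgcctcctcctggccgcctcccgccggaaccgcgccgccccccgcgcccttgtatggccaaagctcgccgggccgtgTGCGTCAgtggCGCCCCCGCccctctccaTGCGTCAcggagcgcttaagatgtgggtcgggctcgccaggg
Itm2a, chrX:107403361-107403610, - strand: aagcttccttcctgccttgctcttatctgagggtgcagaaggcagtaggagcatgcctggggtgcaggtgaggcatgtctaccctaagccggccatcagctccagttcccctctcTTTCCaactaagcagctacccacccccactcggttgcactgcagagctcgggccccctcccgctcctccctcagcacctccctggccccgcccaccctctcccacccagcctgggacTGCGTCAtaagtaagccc

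The Nr4a1 promoter held 4 matches to TGCGTCA, which began 235, 215, 71 and 42 bases before the start, and 1 match to the EGR letters at 60 bases before it. Itm2a had 1 match to TGCGTCA at 18 bases before its start and 1 to GGAAA. In the Gadd45b promoter 1 match to the EGR letters began 30 bases before the start, and GGAAA matched at 2 places. Of 32851 promoters of this length in the table, 1.75% held TGCGTCA, 4.7% the EGR letters and 55.6% GGAAA. The first motif was added to the search after the Nr4a1 sequence had been seen. The letters TGACGTCA of the full cyclic AMP response element, TGANTCA of AP-1, and the NF-kB and SRF CArG box motifs had no match in these 3 windows and matched 1.55%, 6.75%, 3.9% and 1.47% of all promoters. A match is a description of the sequence and was not measured as a binding site here.

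Gadd45b, which encodes a stress-induced activator of the p38 and JNK kinases, rose with peptide by its dimmer probe set. Its intensities were 30.6, 31.9 and 15.3 without peptide and 161, 92.7 and 237 with it, and 18.4 and 17.9 in the wild-type arrays. All 3 arrays with peptide lay above all 3 without, and the pair differences were 2.4, 1.54 and 3.96. The fitted difference was 2.63 ± 0.33, which is 6.19-fold, with a limma adjusted p of 0.0243. With the replicate number as a block the adjusted p was 0.0757, and within the 6 arrays alone it was 0.637, so the call is lost there. All 3 starting intensities of this probe set were below the array medians. The brighter Gadd45b probe set had intensities of 171, 132 and 114 without peptide and 235, 174 and 399.9 with it, a difference of 0.89 ± 0.29 (limma adjusted p = 1), again with no overlap. Its relatives differed less: Gadd45g by 0.34 ± 0.15 and Gadd45a by -0.54 ± 0.37.

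Nr4a1 encodes the orphan nuclear receptor Nur77, widely used as a reporter of TCR signal strength. Its intensities were 332, 256 and 236 without peptide and 1136, 854 and 1759 with it, and 149.6 and 133 in wild-type cells. Every array with peptide lay more than 2-fold above the highest array without. The difference was 2.14 ± 0.35, or 4.4-fold, with pair differences of 1.77, 1.74 and 2.90 and a limma adjusted p of 0.107. Itm2a, a membrane protein gene that is switched on during positive selection, had intensities of 211, 268 and 458 without peptide and 908, 1142 and 1102 with it. The groups did not overlap, and the difference was 2.11, 2.09 and 1.27 in pairs 1, 2 and 3. Its fitted difference was 1.82 ± 0.31 (limma adjusted p = 0.107, and 0.0757 with the replicate block). Without any array numbered 3 the difference of Itm2a was 2.10.

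**Figure D1:**
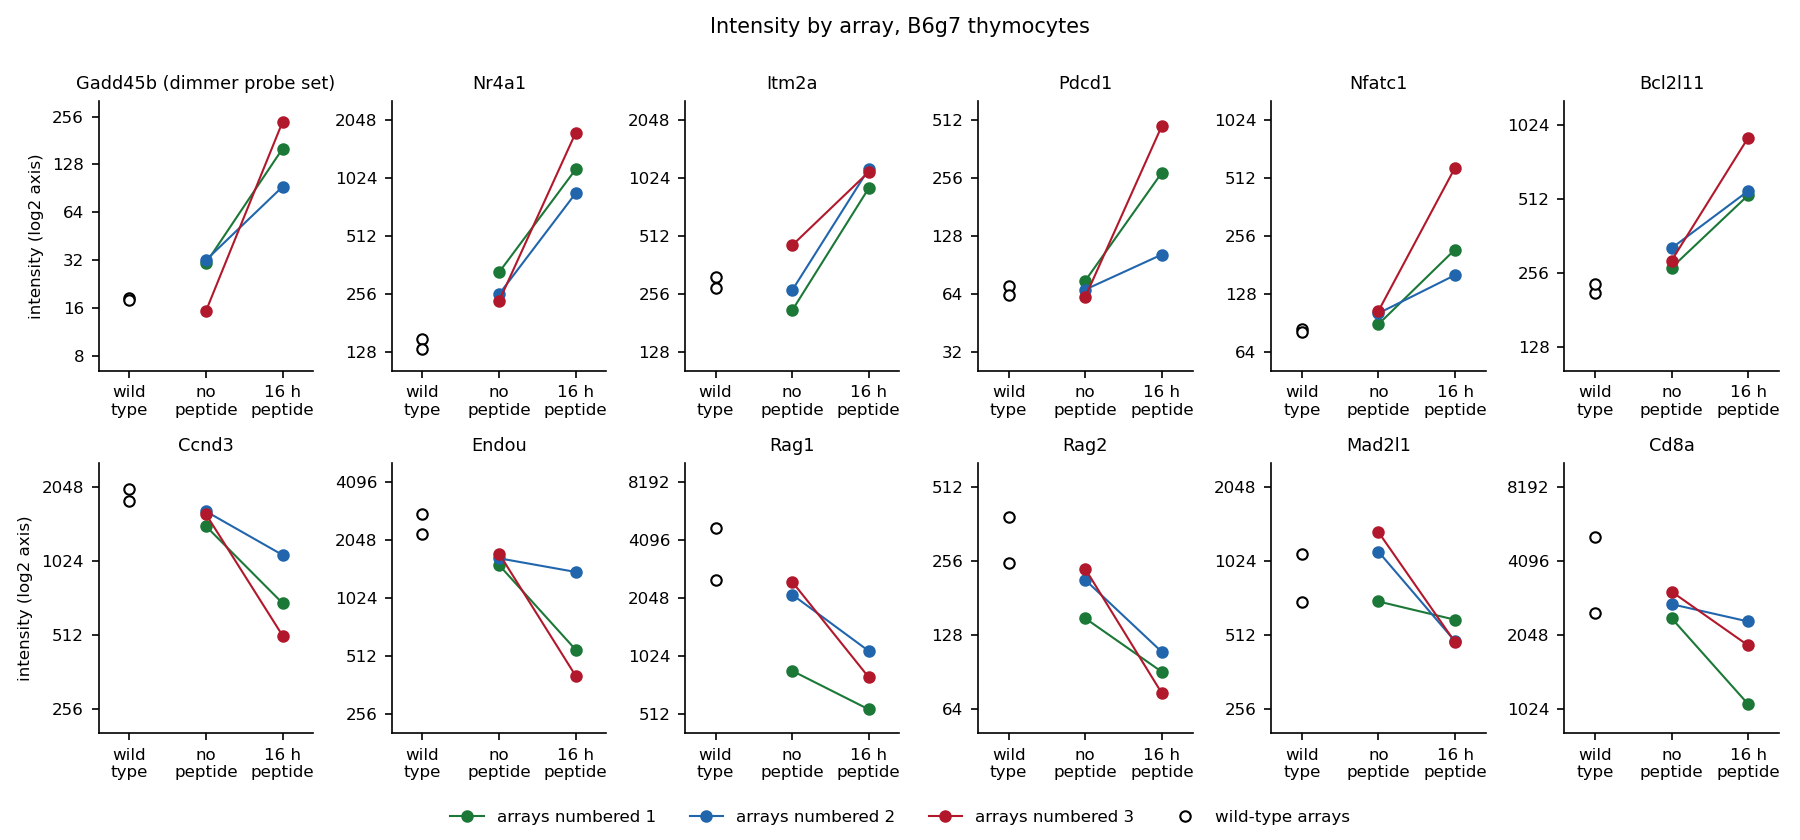
Intensity of 12 genes on a log2 axis in wild-type B6g7 cells (open circles, 2 arrays), BDC2.5/B6g7 cells without peptide and at 16 h of peptide (filled circles, 3 arrays each, lines join same-numbered arrays). For the upper 6 genes all arrays with peptide lie above all without, as Nr4a1 does with 854 to 1759 against 236 to 332, and of the lower 6 only Rag1 overlaps.

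Genes at an intensity of at least 100 in the higher group were ranked by the size of their difference, among those whose arrays did not overlap. Over all genes, 100 were higher with peptide by at least 1.5-fold with no overlap of the arrays (1.21%) and 43 were lower (0.521%). A demand that every pair differ by at least 1.5-fold left 16 higher (0.194%) and 21 lower genes (0.255%), whatever their arrays' overlap. When the arrays numbered 3 were left out, which leaves 2 against 2, the counts without overlap were 42 and 65. The median difference over all genes was -0.0028.

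After Nr4a1 and Itm2a the third largest positive difference was that of Pdcd1, the gene of the inhibitory receptor PD-1. Its intensities were 75.1, 67.6 and 61.9 without peptide and 273, 103 and 478 with it, where array 2 with peptide was nearest to the controls. The difference was 1.80 ± 0.38 (limma adjusted p = 0.378). Ccnd2, the gene of cyclin D2, had intensities of 135, 121 and 165 without peptide and 209, 216 and 1581 with it. Its mean difference of 1.58 ± 0.64 rested largely on array 3 with peptide, and it was 0.73 without the arrays numbered 3. Nfatc1, a calcium-responsive transcription factor that induces its own gene, had intensities of 89.3, 102 and 105 without peptide and 218, 161 and 579 with it, a difference of 1.47 ± 0.41. Again array 3 with peptide was the highest, and the remaining arrays with peptide still lay above all without, with a difference of 0.97 without the arrays numbered 3.

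The other 10 of the 15 largest positive differences covered several roles. Ppan (1.36 ± 0.45) and Nop16 (1.09 ± 0.40) act in ribosome assembly, and Pabpc4 (1.04 ± 0.26) binds the poly(A) tails of mRNA. Tnfrsf1b (1.10 ± 0.27) encodes TNF receptor 2 and Relb (1.0 ± 0.24) an NF-kB subunit. Bcl2l11, the gene of Bim, had intensities of 269, 323 and 288 without peptide and 531, 552 and 909 with it, a difference of 1.14 ± 0.26, with 0.98, 0.77 and 1.66 in the 3 pairs. Its 2 dimmer probe sets gave 0.57 and 0.06, so the size depends on the stretch read. Lef1, a TCF-family transcription factor of early thymocytes, had intensities of 349.9, 255 and 329 without peptide and 1067, 607 and 603 with it, and like Itm2a it differed most in pair 1 and least in pair 3. The dimmer Lef1 probe set differed by only 0.09. The remaining 3 were Eno3, a glycolytic enolase (1.23 ± 0.38), B4galnt1, which makes gangliosides (1.14 ± 0.38), and the epoxide hydrolase gene Ephx1. Pair 3 carried much of the first 2 of these, with pair differences of 0.62, 0.57 and 2.49 for Eno3 and 0.58, 0.53 and 2.31 for B4galnt1. Without the arrays numbered 3 their differences were 0.60 and 0.55, and those of Ppan, Relb, Pabpc4, Tnfrsf1b and Nop16 were 0.77, 0.54, 0.67, 0.71 and 0.72. Ephx1 had intensities of 138, 107 and 85.7 without peptide and 313, 183 and 214 with it, and its difference of 1.10 ± 0.22 was 1.18, 0.78 and 1.32 in the 3 pairs, with a limma adjusted p of 0.335.

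The largest negative difference of this kind was that of Endou, a gene of a uridine-specific RNA endonuclease. Its intensities were 1522, 1649 and 1745 without peptide and 554, 1401 and 405 with it, so array 2 with peptide stayed near the controls while arrays 1 and 3 were far below. The difference was -1.27 ± 0.43. Rag2, a subunit of the V(D)J recombinase, had intensities of 149.9, 215 and 238 without peptide and 90.8, 109 and 74.3 with it, a difference of -1.13 ± 0.37. Ccnd3 encodes cyclin D3, which thymocytes use to expand after receptor gene rearrangement. Its intensities were 1422, 1634 and 1590.5 without peptide and 691, 1086 and 510 with it, with all 3 controls above all 3 arrays with peptide. The difference was -1.09 ± 0.24, the negative difference with the smallest limma adjusted p among the 15 (0.421).

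Several of the other 12 belong to cell division. Mad2l1 (-0.98 ± 0.41) acts in the spindle checkpoint, Pola1 (-0.97 ± 0.48) is the catalytic subunit of DNA polymerase alpha, Cks2 (-0.85 ± 0.56) binds cyclin-dependent kinases, and Cdkn2d (-0.88 ± 0.24) inhibits CDK4 and CDK6. Asf1b, a chaperone of newly made histones, had intensities of 1147, 1203 and 1242 without peptide and 652, 673 and 526 with it, far apart in the groups and close within them, with a difference of -0.96 ± 0.22. In wild-type B6g7 cells Asf1b was lower than in either group, at 240.3 and 306. The remaining members were Lrba (-1.04 ± 0.37), which keeps CTLA-4 from being degraded, Ets2 (-0.89 ± 0.25), an Ets transcription factor of immature thymocytes, the phosphatase gene Ptprf (-0.86 ± 0.31), the co-chaperone gene Dnajb1 (-0.89 ± 0.39), Hpf1 (-0.90 ± 0.73), a cofactor of PARP1, Ilvbl (-0.82 ± 0.24) and Spag7 (-0.96 ± 0.28). In all 15 of these genes pair 3 differed most. The medians were -0.72, -0.79 and -1.49 in pairs 1, 2 and 3, against 1.04, 0.66 and 1.93 for the 15 positive differences, of which 13 were largest in pair 3. Without the arrays numbered 3 the medians were 0.77 and -0.73. The direction of all 30 could not turn then, because they were picked for arrays that did not overlap. The negative differences that shrank most then were Cks2 (-0.49), Hpf1 (-0.56), Pola1 (-0.64) and Endou (-0.85).

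The receptor itself and its proximal signalling genes showed no common direction. Of 26 measured members, 10 were higher and 16 lower with peptide, with a median of -0.04. Cd6, a receptor that tunes TCR signals, was higher in every pair, with intensities of 746, 562 and 421 without peptide and 1145, 955 and 963 with it, a difference of 0.86 ± 0.43. Cd8a, the coreceptor for class I MHC, had intensities of 2403, 2739.7 and 3082 without peptide and 1074, 2329 and 1861 with it, a difference of -0.71 ± 0.35, with no overlap. Cd4, the coreceptor for class II MHC, had intensities of 237, 273 and 224 without peptide and 203, 209 and 158 with it, a difference of -0.37 ± 0.18, again lower in every pair. Rhoh, which helps to recruit ZAP-70, differed by -0.57 ± 0.18.

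Of 27 measured immediate-early and TCR-induced transcription factors, 20 were higher with peptide, and 13 were higher in every pair, against 14.8% of all genes. Their median was 0.18, and it was 0.24, 0.10 and 0.33 in pairs 1, 2 and 3. Besides Nr4a1, Irf4, which encodes a factor that scales with TCR signal in lymphocytes, was higher without overlap, at 41.3, 40.8 and 43.0 without peptide and 77.9, 58.7 and 134 with it, a difference of 1.03 ± 0.21. Ier2 had intensities of 307, 296 and 272 without peptide and 647, 316 and 713 with it, where arrays 1 and 3 with peptide were more than 2-fold above their partners and array 2 was near the controls. Nr4a2 had 24.5, 27.3 and 24.9 without peptide and 36.0, 27.8 and 145 with it, and Bhlhe40 13.1, 13.6 and 13.2 without peptide and 17.1, 14.1 and 45.8 with it, both led by array 3. The Egr genes overlapped between the groups. Egr1 had intensities of 275, 432 and 697 without peptide and 402, 524 and 536 with it, a difference of 0.15 ± 0.38, with overlap. Egr2 was higher in every pair, by 0.83, 0.50 and 0.58 although its groups overlapped because its controls differed among themselves, at 159, 270.5 and 379 without peptide and 284, 384 and 565 with it. Fos, an AP-1 subunit, was also higher in every pair, by 1.11, 0.51 and 0.63. The dimmer Fos probe set differed by only 0.0048. Myc had intensities of 13.9, 14.6 and 17.2 without peptide and 27.7, 16.1 and 41.0 with it, in the dim range, and a difference of 0.80 ± 0.27. Btg2, an antiproliferative gene and target of p53, was the 1 member lower without overlap by at least 1.5-fold, against 0.521% of all genes. Its intensities were 1143, 1924 and 1604 without peptide and 887, 1121 and 825 with it, a difference of -0.70 ± 0.22. Egr3 had no probe set of its own.

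Genes that restrain the TCR signal were split, 10 higher and 9 lower of 19, with a median of 0.01. Cd5 was the 1 member higher without overlap by at least 1.5-fold, against 1.21% of all genes. This inhibitory receptor, whose level follows TCR signal in thymocytes, differed by 0.65, 1.03 and 1.24 in the pairs. It had intensities of 1364, 872 and 738 without peptide and 2138, 1781 and 1744 with it. Its difference was 0.97 ± 0.47, and wild-type cells had 629.9 and 319.5. Dusp1, a phosphatase of MAP kinases, differed by 0.57 ± 0.22, with no overlap but by less than 1.5-fold. Socs3, an inhibitor of cytokine signalling, had 1 control array far above the rest, at 124, 343 and 67.2 without peptide and 80.6, 76.2 and 67.1 with it.

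Of 18 calcium, calcineurin and NFAT genes only Nfatc1 was higher without overlap by at least 1.5-fold, against 1.21% of all genes. The list's median was -0.04, or 0.02 without the arrays numbered 3. Ppp3ca, the catalytic subunit of calcineurin, differed by 0.34 ± 0.20 and was higher in every pair. In the NF-kB list 14 of 21 members were higher, with a median of 0.05. That median was 0.02 without array 3 with peptide and 0.06 without the arrays numbered 3. The 3 members higher without overlap by at least 1.5-fold were Relb, Nfkb2 and Gadd45b, against 1.21% of all genes. Nfkb2, the precursor of the partner of RelB, had intensities of 89.6, 60.4 and 68.4 without peptide and 129, 104 and 200 with it, a difference of 0.95 ± 0.24. Relb had 114, 94.6 and 76.4 without peptide and 168, 135 and 292 with it and was higher in every pair as well. The dimmer Relb probe set differed by 0.34. Nfkbia, the classical inhibitor and feedback target of NF-kB, differed by -0.06 ± 0.26 with overlapping arrays, and its dimmer probe set by 0.50. Birc3 was at 199, 201 and 228 without peptide and 209, 209.7 and 444 with it, so only array 3 with peptide stood above the rest.

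In the costimulatory, inhibitory and TNF family list 30 of 38 members were higher, 17 of them in every pair, against 14.8% of all genes. The median was 0.13, and 0.06 without the arrays numbered 3. Members higher without overlap and by at least 1.5-fold were Pdcd1, Tnfrsf4, Tnfrsf1b, Tnfsf11 and Cd200, against 1.21% of all genes. Tnfsf11, the gene of RANKL through which thymocytes act on medullary epithelium, had intensities of 18.6, 16.9 and 23 without peptide and 49.0, 31.9 and 75.8 with it, a difference of 1.35 ± 0.35, higher in each pair by 1.40, 0.92 and 1.72. Tnfrsf4, the gene of the costimulatory receptor OX40, had 125, 118 and 122 without peptide and 179.9, 189 and 299.7 with it, a difference of 0.83 ± 0.20. Tnfrsf1b, listed above, had 54.6, 60.8 and 49.4 without peptide and 112, 79.9 and 182 with it. For Tnfrsf9, the gene of 4-1BB, the 2 probe sets disagreed: the brighter differed by 0.07 ± 0.09, and the dimmer by 1.54, from 12.2, 12 and 12.7 to 26.8, 15.6 and 110. Of the cytokine genes on this list, Ltb, the gene of lymphotoxin beta, was bright, with means of 998 without and 1121 with peptide, and Lta had 113 and 156. Ifng was dim, at 11.3, 10 and 9.6 without peptide and 10, 10.9 and 10.7 with it. Fasl, the death ligand, was higher in every pair from a low level, at 23.2, 22.1 and 22.1 without peptide and 27.9, 26.3 and 29.4 with it.

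Cytokine receptor and JAK-STAT genes had a median of 0.02, with 16 of 27 higher, and of -0.01 without the arrays numbered 3. Il7r, the receptor chain for the survival cytokine IL-7, which double-positive cells silence, had intensities of 21.5, 20.5 and 30.8 without peptide and 38.3, 56.5 and 33.5 with it. Its difference of 0.81 ± 0.29 was largest in pair 2, at 1.47, and smallest in pair 3, at 0.12. Stat5b, which acts downstream of it, differed by 0.46 ± 0.20 with no overlap.

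Death and survival genes showed no common shift. Among 26 pro-apoptotic genes there were 9 higher and 17 lower, with a median of -0.06 in each pair, and of 17 anti-apoptotic genes 8 were higher and 9 lower. Bcl2l11 was the 1 pro-apoptotic member higher without overlap by at least 1.5-fold, against 1.21% of all genes. Casp6, an effector caspase, was lower without overlap, at 163, 174 and 153 without peptide and 102, 117 and 85.8 with it, a difference of -0.69 ± 0.18. Bcl2, which opposes Bim, differed by 0.03 ± 0.18 at its brightest probe set, and by 0.43 and 0.11 at the dimmer ones. Fas, the death receptor, had intensities of 114, 158 and 130.2 without peptide and 69.4, 141 and 155 with it, with overlap. Birc5, the gene of survivin, which also serves in mitosis, was lower in every pair, at 171, 180.2 and 269 without peptide and 109, 137 and 143 with it.

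The list of double-positive thymocyte genes also held Il7r, Ptcra, Notch1 and Hes1, which are on the list of double-negative markers too. Of its 25 measured members 19 were lower, with a median of -0.23 and of -0.22, -0.08 and -0.40 in pairs 1, 2 and 3. Without the arrays numbered 3 the median was -0.14. Rag1, the other recombinase subunit, had intensities of 861, 2138 and 2492 without peptide and 543, 1089.7 and 796 with it and was lower in each pair, by -0.66, -0.97 and -1.65. Its arrays overlapped because control array 1 began lower than the other controls, and its difference was -1.09 ± 0.59. The dimmer Rag1 probe set differed by only -0.15, also with overlap. Dntt, the gene of terminal transferase, had 2721, 1905 and 2735 without peptide and 2040.5, 1709.6 and 864 with it, a difference of -0.74 ± 0.27, largest in pair 3. Ptcra, which encodes the pre-TCR alpha chain, had 202, 189 and 193 without peptide and 123, 180.0 and 94.8 with it, with array 2 with peptide close to the controls. Rag2, Ptcra, Ets2 and Cd8a were lower without overlap by at least 1.5-fold, while Lef1, Sox4 and Il7r were higher. Of all genes 0.521% were lower and 1.21% higher in this way. Sox4, a transcription factor that supports thymocyte survival, had 296, 367 and 249 without peptide and 441, 445 and 479 with it. The dimmer Sox4 probe set differed by only 0.07. In RNA of a mixed sample fewer cells of a type and less RNA per cell cannot be told apart. Among 29 maturation and migration genes 18 were higher, with a median of 0.15 that was 0.07 without the arrays numbered 3. Those higher without overlap by at least 1.5-fold were Itm2a, Cd5 and Il7r, against 1.21% of all genes. Ccr7, the receptor that guides selected cells to the medulla, stayed dim at 20.5, 18.6 and 20.4 without peptide and 23.1, 18.2 and 40.0 with it, and Cd69 had no probe set of its own.

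Ribosome biogenesis and polyamine synthesis had the highest median of the 25 pathway lists, 0.40, with 30 of 37 members higher and 23 higher in every pair, as were 14.8% of all genes. The median was 0.20, 0.25 and 0.73 in pairs 1, 2 and 3, and 0.23 without the arrays numbered 3. The 9 members higher without overlap by at least 1.5-fold were Ppan, Srm, Odc1, Bop1, Gnl3, Polr1b, Mettl1, Pprc1 and Ftsj3, against 1.21% of all genes. Gnl3, the gene of nucleostemin, had intensities of 164, 144 and 203 without peptide and 205, 263 and 529.7 with it, a difference of 0.86 ± 0.36. Ftsj3, an rRNA methyltransferase gene, had 79.6, 99.6 and 111 without peptide and 116, 145 and 312 with it and 0.86 ± 0.31. For Odc1 and Srm, the genes of the polyamine enzymes ornithine decarboxylase and spermidine synthase, intensities were 109, 100.2 and 119 without peptide and 167, 141 and 207 with it and 117, 103 and 82.1 without peptide and 159.6, 147 and 242 with it. Mettl1, a tRNA methyltransferase gene, began dim at 40.3, 35.2 and 40.5 without peptide and 54.8, 58.4 and 67.4 with it, but differed alike in all pairs, by 0.44, 0.73 and 0.73, with a limma adjusted p of 0.203. Pprc1, a coactivator of growth genes, was dimmer still at 17.7, 19 and 17.8 without peptide and 25.5, 25.5 and 33.3 with it, with 0.62 ± 0.10 and a limma adjusted p of 0.107. Npm1, the abundant nucleolar protein gene, had 1533, 1734 and 3693 without peptide and 1899, 2754 and 4362 with it, where the arrays numbered 3 were highest in both groups.

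Mitosis genes had the lowest median, -0.33, with 32 of 38 members lower and 20 lower in every pair, against 16.1% of all genes. The median was -0.25, -0.15 and -0.61 in pairs 1, 2 and 3, and -0.15 without the arrays numbered 3. Mad2l1 had intensities of 702, 1120.3 and 1346 without peptide and 592, 484 and 480.0 with it. Cdk1, the kinase of mitotic entry, had 1091, 755 and 1095 without peptide and 704, 684 and 551 with it, a difference of -0.59 ± 0.22. Nek2, a centrosomal kinase, had 255, 265 and 334 without peptide and 191, 176 and 138 with it and -0.76 ± 0.29. Top2a, the topoisomerase of dividing cells, had 851, 719.9 and 1176 without peptide and 643, 522 and 648 with it, and Stmn1, which controls microtubules, had 3440.1, 3147 and 3770.0 without peptide and 2459, 2832 and 2367 with it. Each of these 5 genes was lower in every pair with no overlap. Of 37 DNA replication genes 24 were lower, with a median of -0.12 that was -0.07 without the arrays numbered 3, but in pair 2 alone 24 of the 37 were higher. Lig1, the ligase of replication, differed by -0.50 ± 0.19. Among 27 G1 regulators, 19 were lower, with a median of -0.11, and cyclins D2 and D3 lay at opposite ends of that list.

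**Figure D2:**
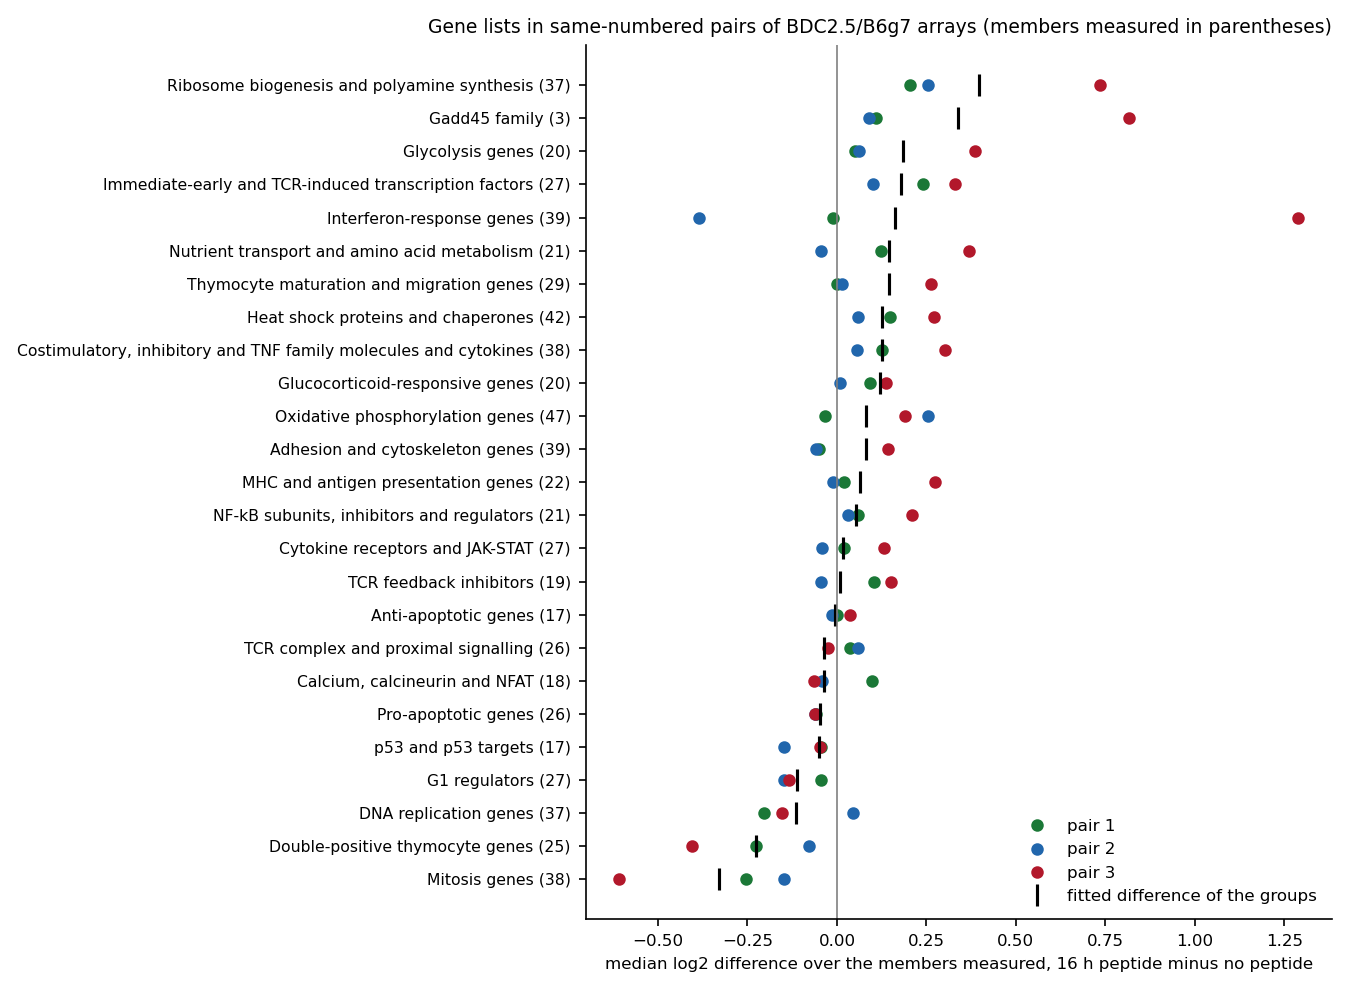
Median log2 difference (16 h of peptide minus no peptide) over the measured members of 25 pathway lists, in each same-numbered pair of arrays (coloured dots) and in the fitted comparison (black bars), with the lists ordered by the fitted value. Ribosome biogenesis at 0.40 and mitosis at -0.33 stand at the ends with all 3 pairs on one side of 0, and the interferon-response list ranges from -0.38 to 1.29.

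Metabolic lists differed by small medians. Of 20 glycolysis genes, 13 were higher, with a median of 0.19 that was 0.03 without the arrays numbered 3. Pfkp, a phosphofructokinase gene, had intensities of 206, 193 and 197 without peptide and 220.3, 259.5 and 485 with it, and Hk2, the inducible hexokinase gene, 24.9, 24.1 and 22.2 without peptide and 29.1, 25.5 and 35.1 with it. Oxidative phosphorylation had 32 of 47 members higher and a median of 0.08, and nutrient transport and amino acid metabolism 13 of 21 and 0.15. Without array 3 with peptide these medians were 0.16 and 0.04, and without the arrays numbered 3 they were 0.06 and 0.05. Shmt1, an enzyme of folate metabolism, had 115, 89.3 and 97.6 without peptide and 139, 118 and 228 with it and was higher in every pair. Chaperones had 29 of 42 higher and a median of 0.13. Hspa1a, a stress-inducible Hsp70 gene, had intensities of 51.4, 46.5 and 47.8 without peptide and 76.7, 61.6 and 198 with it, with array 3 far above the rest, while the co-chaperone gene Dnajb1, listed above, went the other way at 79.1, 114 and 157 without peptide and 60.5, 54.5 and 66.7 with it. The p53 targets had a median of -0.05, glucocorticoid-responsive genes 0.12, adhesion and cytoskeleton genes 0.08 and MHC and antigen presentation genes 0.06. Without the arrays numbered 3, glucocorticoid-responsive genes had 0.06, while the sign turned for adhesion genes (-0.05) and for MHC genes (-0.0037). The p53 targets had -0.11 and chaperones 0.03 without array 3 with peptide, and -0.07 and 0.08 without the arrays numbered 3. In the adhesion list Cnn2, a calponin gene, was higher without overlap, at 216, 220.4 and 182 without peptide and 324, 312 and 394 with it and 0.73 ± 0.19.

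The interferon-response genes differed in direction between the pairs. Of 39 members 18 were higher in pair 1, 5 in pair 2 and 36 in pair 3, with medians of -0.01, -0.38 and 1.29. Their summed intensity was 13013, 14972 and 12974 without peptide and 11526, 10052 and 25126 with it. Array 3 with peptide thus stood above all others and array 2 with peptide below all others. Irf8, an interferon-induced factor also active in myeloid cells, had intensities of 46.1, 52.4 and 38.1 without peptide and 87.4, 49.0 and 755 with it, and Iigp1, an interferon-induced GTPase gene, 25.8, 27.2 and 45.1 without peptide and 27.0, 21.0 and 595 with it. Gbp2, another such GTPase, had 116, 268 and 185 without peptide and 155, 90.9 and 1423 with it, where array 2 with peptide was the lowest of the 6 and array 3 the highest. Igtp had 270.5, 683 and 395 without peptide and 269, 229 and 1542 with it. Samhd1, a restriction factor, was the 1 member higher without overlap by at least 1.5-fold, against 1.21% of all genes. Its intensities were 30.6, 29.9 and 32.1 without peptide and 58.6, 32.3 and 240.0 with it. The median of the list was 0.16 over all arrays and -0.29 without the arrays numbered 3, so the sign turned. Ifng stayed dim on every array, and Ctss, a protease of antigen-presenting cells on the myeloid list, was highest on array 3 too, at 85.7, 219 and 184 without peptide and 169, 159 and 697 with it. Ctss had the largest difference of the 32 myeloid and dendritic markers, so it does not stand for that list. The list's median was 0.13, 0.04 and 0.04 in pairs 1, 2 and 3. The part of other cells in these values was not tested.

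**Figure D3:**
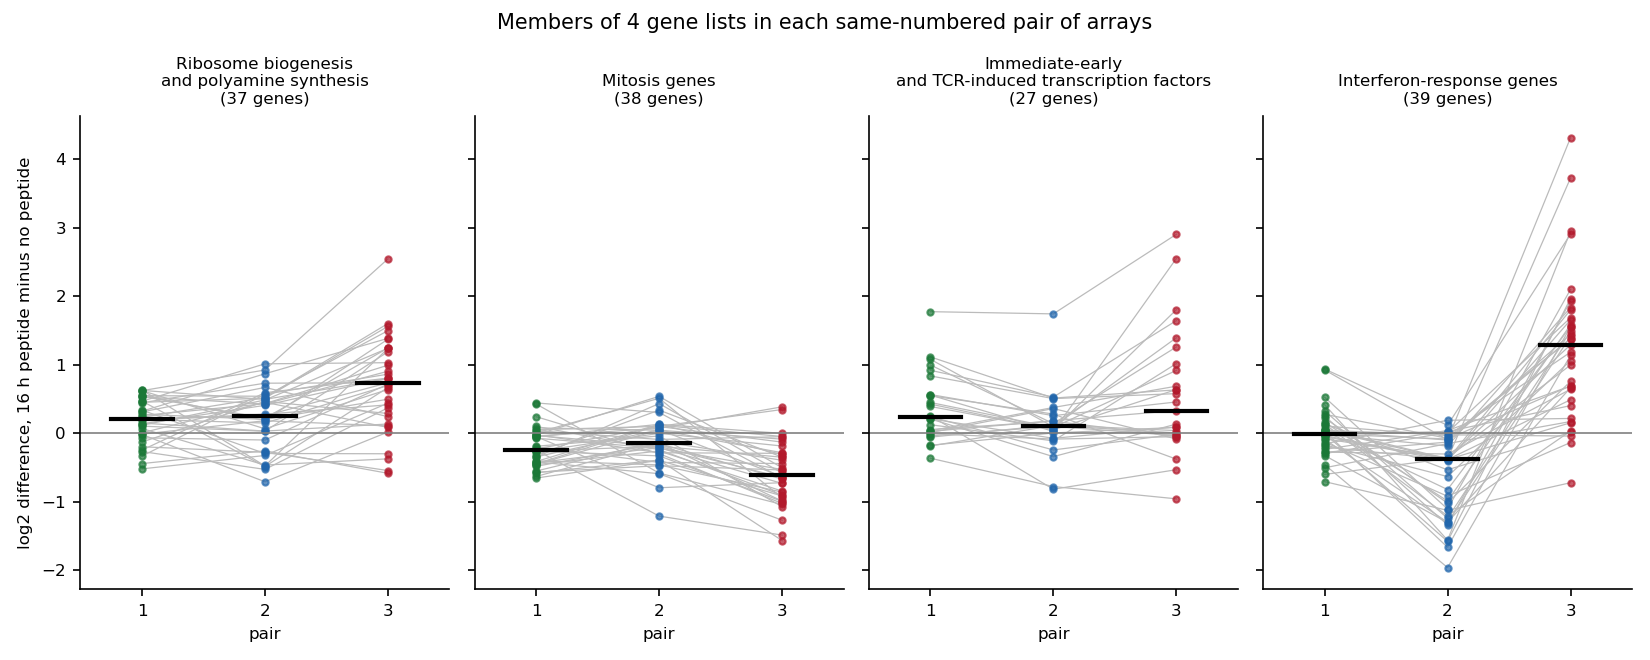
Log2 difference (16 h of peptide minus no peptide) of each member of 4 gene lists in same-numbered pairs 1, 2 and 3, where a dot is a gene, grey lines join a gene across pairs and black bars are medians. Ribosome biogenesis lies mostly above 0 and mitosis mostly below 0 in all pairs, while the interferon-response members are mostly below 0 in pair 2 (median -0.38) and above it in pair 3 (1.29).

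The same contrast in BDC2.5/NOD cells, on arrays that the choice of genes did not use, went the same way for 14 of the 15 largest positive differences, the exception being Pabpc4. Of all genes, 42.4% were higher in NOD. In 12 of the 15 every NOD pair was higher, as in 10.8% of all genes. The median of the 15 was 0.52 in NOD against 1.23 in B6g7. Itm2a was nearly as large, at 1.67 ± 0.31, and Nr4a1 had 1.6 ± 0.35. Of the 15 negative differences, 11 went the same way in NOD, where 57.6% of all genes were lower, and 4 were lower in every NOD pair, as were 18% of all genes. Their NOD median was -0.03. All 30 were smaller in NOD than in B6g7, but they were picked for their size in B6g7, so this order says nothing about the strains.

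**Figure D4:**
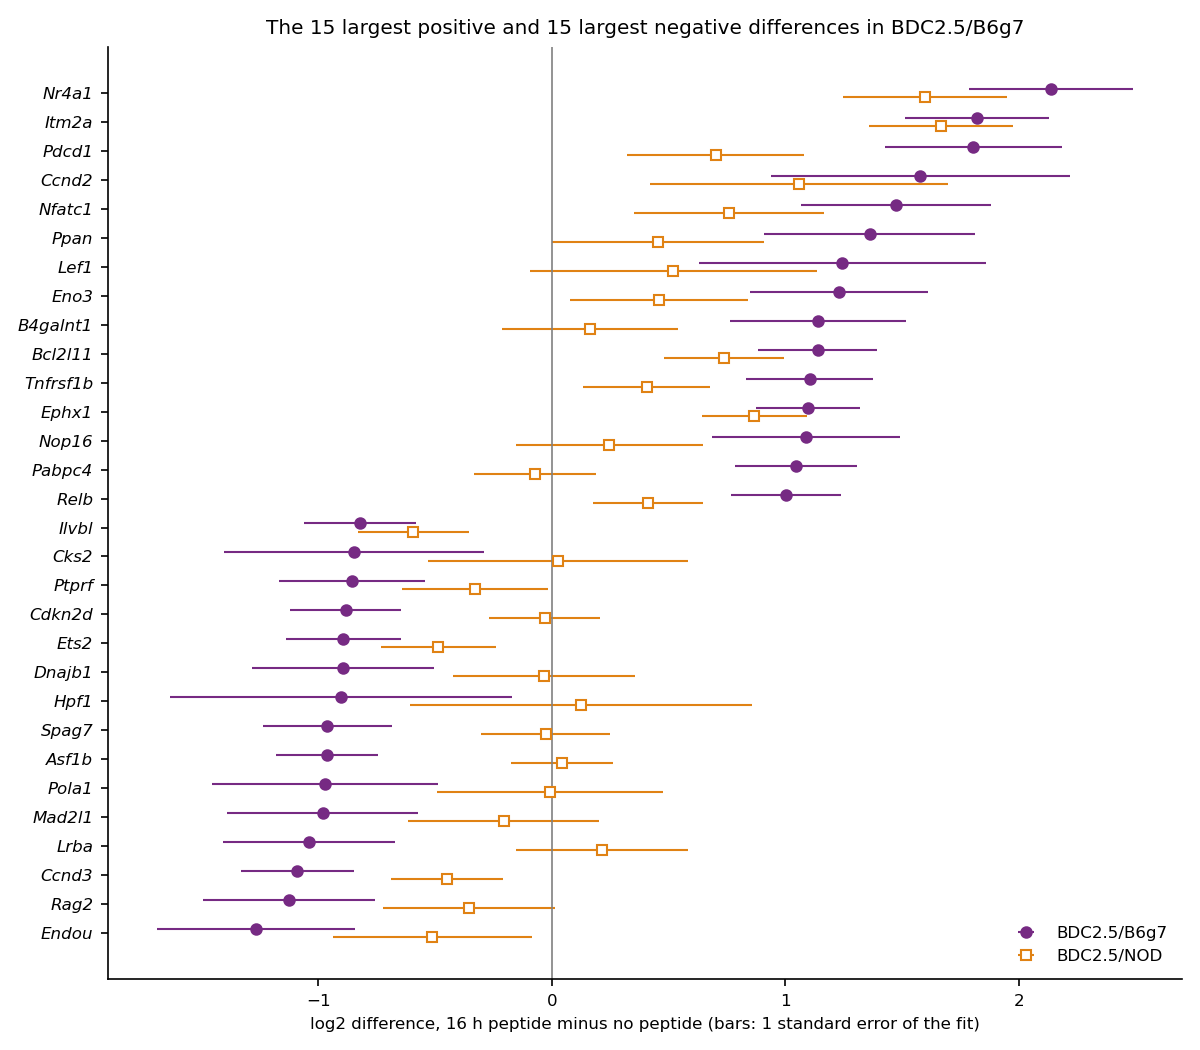
Fitted log2 difference (16 h of peptide minus no peptide) with 1 standard error for the 15 largest positive and 15 largest negative differences of BDC2.5/B6g7 cells whose arrays did not overlap, beside the same genes in BDC2.5/NOD cells, 3 arrays a group. The genes were ranked on the B6g7 values, and 14 of the upper 15 but 11 of the lower 15 have the same sign in NOD.

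The test of the strain difference itself, NOD minus B6g7 response in the same limma fit, called 0 of 12422 probe sets (0%), and 147 (1.18%) had an unadjusted p under 0.05. The smallest unadjusted p among the genes above was that of the dimmer Gadd45b probe set, 0.005, which differed by 1.05 ± 0.33 in NOD against 2.63 ± 0.33 in B6g7. Asf1b had the next value, with 0.04 ± 0.22 in NOD against -0.96 ± 0.22 and an unadjusted p of 0.00607. Pabpc4 (0.00954), Tyrobp (0.0129), Casp6 (0.0169), Hspa1a (0.0207), the dimmer Nop16 probe set (0.0233) and Cdkn2d (0.0239) came next by unadjusted p. Tyrobp differed by -0.08 ± 0.17 in NOD against 0.61 ± 0.17 in B6g7, Casp6 by 0.02 ± 0.18 against -0.69 ± 0.18, and Cdkn2d by -0.03 ± 0.24 against -0.88 ± 0.24. Limma's adjusted p was 1 for each of these. The genes were picked by their B6g7 values, which also enter the strain difference, so small unadjusted values are partly built in. For Nr4a1, Itm2a and Bcl2l11 the strain difference was -0.54 ± 0.50, -0.16 ± 0.44 and -0.40 ± 0.36, within 2 standard errors of 0, which does not show that the strains responded alike.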

How the data were processed

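The authors deposited 1 linear intensity per probe set and array, from 7.77 to 14085. Their background correction, probe set summary and scaling are not given in the sources used here. Members and the gene lists were chosen with earlier results of these data known. Intensities were taken to log2 with no pseudocount. Of 12488 probe sets, 66 controls were left out. In the platform annotation 10833 of the 12422 others named 1 gene, 396 several and 1193 none, and 10817 had a gene ID in the RefSeq table. With limma 3.58.1 (R 4.3.3), lmFit gave 1 mean per group over all 16 arrays, and eBayes moderated the contrasts along an intensity trend, with 10 residual and 3.6 prior degrees of freedom, two-sided, with Benjamini-Hochberg adjustment over 12422 probe sets. The number of arrays limits the precision. The fit was tested on simulated data.

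The rule for named genes took the 15 largest differences each way among genes whose arrays did not overlap and whose higher group reached an intensity of 100, every called probe set, up to 3 members of each pathway list by smallest p, and a set of genes whatever their values. Nr4a2, Ier2, Bhlhe40, Fos, Tnfsf11, Gnl3, Ftsj3, Npm1, Sox4, Top2a, Stmn1, Iigp1, Gbp2, Igtp, Ifng, Tyrobp and Ctss, and the genes named among other observations, were picked with their values in view. The labels do not say that numbers pair the arrays. They were taken as pairs because each same-numbered correlation was above 0.1. Alternatives were the replicate block, the 6 arrays alone, 2 other scalings, an added floor of 50, a filter at a mean of 100, no trend, the mean of a gene's probe sets and arrays left out. Leaving out the arrays numbered 3 also took the wild-type arrays numbered 2 out of the fit. That left a single array in each wild-type group, so adjusted p-values of that setting are not given.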

Additional observations from a re-analysis of the deposited data

Results flagged for a closer look

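In 4 of the genes named by the rule every BDC2.5/B6g7 pair was higher with peptide and every BDC2.5/NOD pair lower. Over all genes, 14.8% were higher in every B6g7 pair and 18% were lower in every NOD pair. The share of all genes with both was not counted, so the 4 are a description only. The strain difference below is the NOD minus the B6g7 response, and its adjusted p in the limma fit was 1 for each of the 4. Pabpc4 differed by 1.06, 0.28 and 1.80 in the B6g7 pairs and by -0.10, -0.03 and -0.09 in the NOD pairs, a strain difference of -1.12 ± 0.37. Hspa1a differed by 0.58, 0.40 and 2.05 and -0.18, -0.07 and -0.09, a strain difference of -1.12 ± 0.43. For Plk2, a polo-like kinase gene, the values were 0.35, 0.04 and 0.54 and -0.28, -0.16 and -0.03, with -0.47 ± 0.22. For Camk2d, a calcium-dependent kinase gene, they were 0.19, 0.12 and 0.22 and -0.19, -0.18 and -0.16, with -0.36 ± 0.14, at intensities under 24 on the 6 B6g7 arrays.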

How the results depend on the processing

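The dimmer Gadd45b probe set kept its direction in every alternative that tested it, which its lack of overlap fixed where arrays were left out. It was called with quantile normalization, median centring, an added floor of 50 and without array 2 with peptide. It was not called with the replicate block, within the 6 arrays alone, without an intensity trend or with any other single array left out. The count of probe sets called higher was 0 with the replicate block (all BDC2.5 arrays or B6g7 alone), 0 with the 6 arrays alone, 0 with dim probe sets left out, which removes this probe set, and 0 with no intensity trend. It was 2 with quantile normalization and with the floor, and 0 to 9 with single arrays left out. Without array 2 with peptide the 9 higher calls, of which Nr4a1, Pdcd1 and Irf4 were part, stood beside 1 lower call, Ccnd3, and the range of lower calls was 0 to 1. The block changed no other call. The strain difference called 0 under all alternatives.

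Genes higher and lower without overlap numbered 43 and 26 with the floor, 42 and 65 without the arrays numbered 3, and 71 to 272 and 43 to 334 with single arrays left out. With dim probe sets left out 61 were higher. Genes with every pair beyond 1.5-fold numbered 7 higher and 8 lower with the floor, and 18 to 118 and 25 to 168 with single arrays left out. These ranges count fewer arrays, so the condition is easier to meet.

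Directions turned for Gbp2 (-0.57), Igtp (-0.79), Iigp1 (-0.16) and Ifng (-0.028) without the arrays numbered 3. With single arrays left out the ranges were -0.59 to 1.39 for Gbp2, -0.75 to 0.62 for Igtp, -0.41 to 2.0 for Iigp1, -0.015 to 0.11 for Ifng, -0.10 to 0.17 for Bcl2, -0.18 to 0.49 for Egr1, -0.42 to 0.15 for Fas and -0.17 to 0.091 for Nfkbia. List medians moved as follows. Immediate-early factors had 0.30 with the mean of probe sets. With dim probe sets left out, cytokine receptors had 0.14, pro-apoptotic genes -0.079, G1 regulators -0.17, chaperones 0.26, p53 targets -0.20 and glucocorticoid-responsive genes 0.048. With the floor, pro-apoptotic genes had -0.033, G1 regulators -0.051 and glucocorticoid-responsive genes 0.051. Pro-apoptotic genes had -0.057 with quantile normalization and -0.062 with median centring. Without the arrays numbered 3 they had -0.038, the TCR complex 0.0091 and adhesion genes -0.048. With single arrays left out the medians ranged from -0.039 to 0.013 for the TCR complex, -0.058 to -0.026 for pro-apoptotic, -0.065 to 0.025 for anti-apoptotic, -0.19 to -0.041 for G1, -0.30 to -0.037 for DNA replication, 0.033 to 0.26 for chaperone and -0.28 to -0.046 for p53 target genes. The cause of these moves was not tested. Dimmer probe sets of named genes differed by 0.05 for Pabpc4, -0.013 for Ftsj3, -0.0019 for Samhd1, -0.12 for Shmt1 and -0.06 for Hk2. Those of Lig1 and Stmn1 gave -0.19 and -0.13, while those of Nop16 and Nr4a2 gave 1.02 and 0.81. Signals under 100 limit the dim genes, and 3 arrays a group limit all.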

Other observations

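Genes outside the rule that differed by at least 1.5-fold in every pair are given here with no test beyond the fit above. Higher in this way were Basp1 (0.91), a membrane protein gene, Mrpl52 (0.76), a subunit gene of the mitochondrial ribosome, Naa15 (0.71), which acetylates new proteins, and Cct6a (0.71), a subunit gene of the cytosolic chaperonin. Lower were Acss1 (-1.22), a mitochondrial acetyl-CoA synthetase gene, Msl1 (-1.09), a subunit gene of a histone acetyltransferase complex, Cmas (-1.01), which activates sialic acid, Macir (-0.97), Adcy6 (-0.90), an adenylyl cyclase gene, and Swi5 (-0.90), a factor of recombination repair. Further lower genes were Cdc123 (-0.81), an assembly factor of translation initiation factor eIF2, Rnf5 (-0.79), a ubiquitin ligase gene, Ctsl (-0.79), a lysosomal protease gene, Ddx6 (-0.74), an RNA helicase gene, Auh (-0.72), an enzyme of leucine breakdown, and Nsg2 (-0.67). The numbers are fitted log2 differences, 16 h of peptide minus no peptide.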
